A study of Arabidopsis thaliana with 9 samples.

Results

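Heat shock proteins, chaperones and the factors that control them were followed in leaf RNA of Arabidopsis thaliana plants that carry a mutated or an unmutated extra copy of a histone H3 gene. The set holds 42 genes, chosen by gene identifier from a list of small heat shock proteins, HSP70 and HSP90 family members, HSP101, co-chaperones and heat stress transcription factors. All 42 were found among the 33302 features of the deposited expression table. The K36M group (2 libraries) came from plants in the Columbia-0 background with an inserted copy of AT4G40040, a histone H3 gene, in which lysine 36 is replaced by methionine. The WT group (2 libraries) came from plants of the same background with an inserted unmutated copy, so both groups are transgenic. RNA was taken from leaves at 21 days from plants grown in soil at 23 degrees C with 16 h of light and 8 h of dark, and no heat treatment is named in the labels. The promoter of the inserted gene, the number of lines and, for the RNA plants, whether the insertion was heterozygous or homozygous are not stated in the labels. The mutation and the site or copy number of the insertion therefore cannot be told apart. Within a group the libraries are labelled as biological duplicates without saying which plants they came from, so p-values measure the spread between these libraries. The series also lists 5 H3K36me3 chromatin immunoprecipitation libraries, which are not analysed here.

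When proteins unfold, class A1 heat stress factors (HSFs) that are present in unstressed cells are released from chaperones and switch on genes for small heat shock proteins, HSP101, inducible HSP70 and HSP90 forms and further HSFs such as HSFA2. Small heat shock proteins hold unfolded proteins, HSP70 and HSP90 refold them with the help of co-chaperones, and HSP101 pulls aggregates apart. Constitutive forms of HSP70 and HSP90 do the same work at normal temperature, and separate forms serve the chloroplast, the mitochondrion and the endoplasmic reticulum (ER), where a separate stress response, the unfolded protein response, sets chaperone levels.

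Expression was deposited as FPKM, a fragment count corrected for gene length and for library size, so levels of different genes are compared per length. Read depth is not stated. Summed over all features, FPKM came to 932464 and 1353463 in K36M replicates 1 and 2 and to 766727 and 2150314 in WT replicates 1 and 2. The feature AT2G01021 alone held 9.01% and 19.59% of these sums in K36M, and 1.39% and 34.59% in WT (same order). In this text 2 values of a group are always given as replicate 1 and then replicate 2. WT replicate 1 stood apart, with Pearson r across genes of 0.821 to 0.834 to each of the other libraries, which correlated with one another at 0.937 to 0.95. The 5 leaf mesophyll genes checked summed to 43791 and 53098 FPKM in K36M and to 36625 and 93126 FPKM in WT, and the 5 seed and embryo genes summed to 0.662 and 0.503 FPKM in K36M and 0.202 and 0.517 FPKM in WT.

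No heat gene was called between the genotypes in the test over all genes, which with 2 libraries a group can miss large differences. PR1, a defence gene outside the set, had a log2 difference of -6.23 (K36M minus WT) and a limma adjusted p of 0.309. Of the 42 members, 36 averaged 1 FPKM or more over the 4 libraries and entered the limma test on log2(FPKM + 1), a scale that understates the differences of low genes. None of the 36 was called at a Benjamini-Hochberg adjusted p below 0.05, against 0.0395% of all tested features (7 of 17738; 0.0282% higher and 0.0113% lower in K36M), and every member had a limma adjusted p of 1. At an unadjusted p below 0.05 there were 4 members, all lower in K36M, namely HSP70-4, HSP70-2, HSP101 and AT1G59860, where 2.37% of all tested features were lower and 1.74% higher at that threshold.

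Below that threshold the values leaned one way. The log2 difference, K36M minus WT, was below 0 for 32 of 36 members (88.9%), against 54.4% of all tested features, and its median was -0.56 over the members and -0.05 over all features. The 2 K36M libraries were both lower than either WT library for 15 members (41.7%, against 19.3% of all features) and both higher for HSFB2A alone (2.8%, against 12.1%). These shares rested on WT replicate 1. That library held the highest value for 29 of the 36 (80.6%, against 34% of all features), and for 9 of them (25%, against 7.4%) it was at least 1 log2 unit above each of the other 3 libraries. With WT replicate 1 left out, 19 of 36 members (52.8%) had a log2 difference below 0, against 57.9% of all features. Both K36M values then lay below the remaining WT value for 17 members (47.2%), against 44.8% of all features, and above it for 9 (25%), against 30% of all features. These last counts were added after seeing the data. Without that library the share of heat genes on the low side was thus close to that of the whole table. Between replicate 1 libraries the difference was below 0 for 33 members (91.7%, against 54.7% of all features), and between replicate 2 libraries for 20 (55.6%, against 52.6%).

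**Figure D1:**
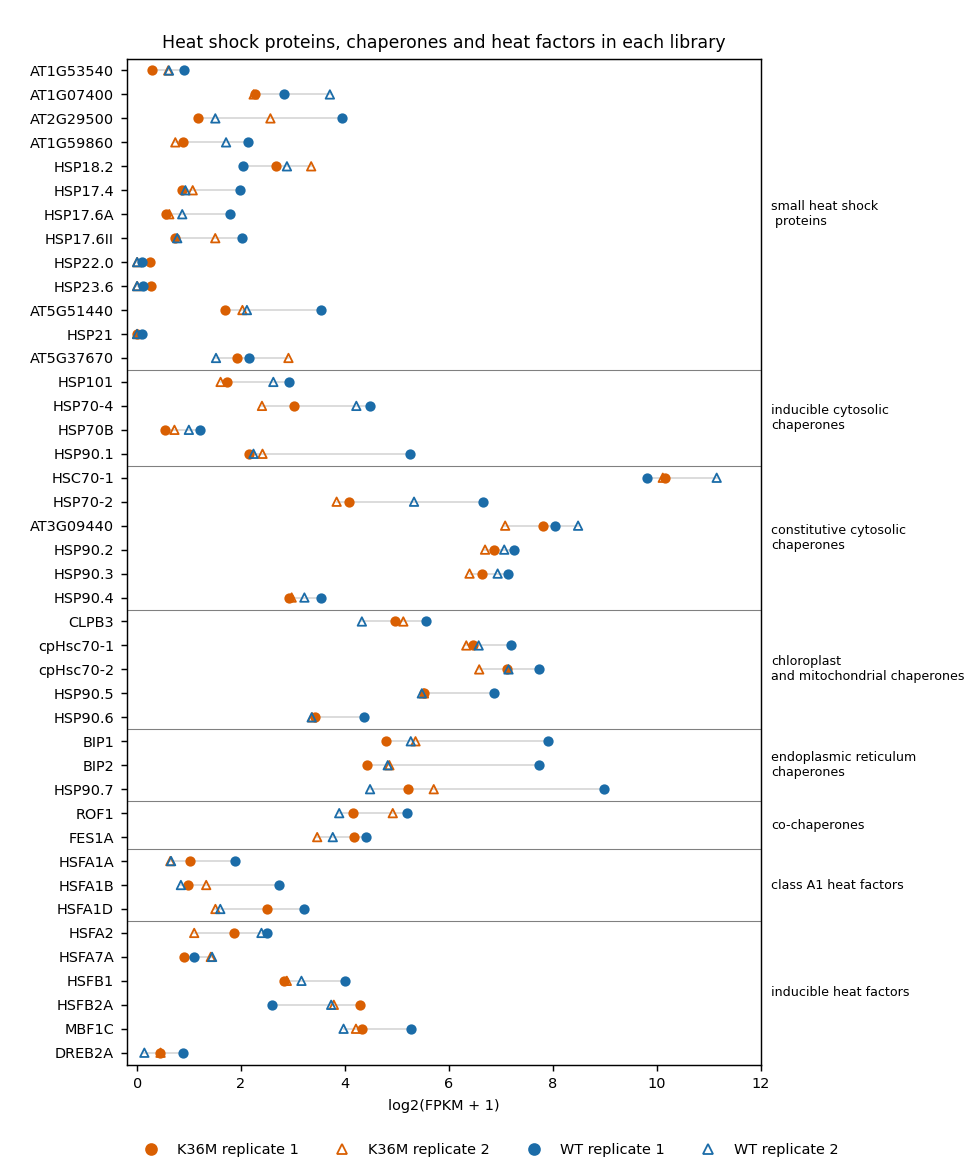
FPKM of the 42 heat genes on a log2(FPKM + 1) axis, 1 row per gene grouped by class, with circles for replicate 1 and open triangles for replicate 2 of K36M (orange) and WT (blue). The filled blue circle, WT replicate 1, is the rightmost point for most genes and is farthest from the rest for HSP90.1, BIP1, BIP2 and HSP90.7, while HSP70-4 and HSP101 have both blue points to the right of both orange ones.

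Among the factors, HSFA2, the heat-induced HSF that prolongs the response, was the one with low values in both K36M libraries and close WT values. It had 2.64 and 1.14 FPKM in K36M, against 4.68 and 4.25 FPKM in WT. The groups did not overlap, and the log2 gap between the libraries of a group was 0.76 in K36M and 0.11 in WT (replicate 1 minus replicate 2). Its log2 difference was -0.97 ± 0.45 (SE; limma unadjusted p = 0.0721, adjusted p = 1), at -0.64 between replicate 1 libraries and -1.29 between replicate 2 libraries.

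The class A1 factors, which start the response, showed another pattern. HSFA1A had 1.02 and 0.557 FPKM in K36M and 2.67 and 0.573 FPKM in WT. HSFA1B had 0.965 and 1.51 FPKM in K36M and 5.66 and 0.793 FPKM in WT, and HSFA1D had 4.68 and 1.84 FPKM in K36M and 8.28 and 2.03 FPKM in WT. In all 3 the groups overlapped and WT replicate 1 was the highest library, while WT replicate 2 lay near or below the lower K36M value. Their log2 differences were -0.44 ± 0.57, -0.64 ± 0.69 and -0.40 ± 0.66 (SE; limma adjusted p = 1 each), and without WT replicate 1 all 3 were above 0, at 0.17, 0.31 and 0.41.

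Other inducible regulators differed in direction. HSFB1, a class B factor that restrains the response, had 6.07 and 6.37 FPKM in K36M and 15 and 7.96 FPKM in WT, without overlap (log2 difference -0.73 ± 0.44 (SE), limma adjusted p = 1). HSFB2A, a related class B repressor, had 18.7 and 12.8 FPKM in K36M and 5.07 and 12.3 FPKM in WT. It was the only tested member with both K36M values above both WT values, but K36M replicate 2 exceeded WT replicate 2 by no more than 0.05 log2 units (overall 0.87 ± 0.51 (SE), limma adjusted p = 1). MBF1C, a co-activator of thermotolerance, had 19.2 and 17.5 FPKM in K36M and 37.6 and 14.7 FPKM in WT. Its groups overlapped (log2 difference -0.35 ± 0.54 (SE), limma adjusted p = 1), as did those of HSFA7A, an inducible class A factor, with 0.864 and 1.67 FPKM in K36M and 1.13 and 1.72 FPKM in WT. DREB2A, a drought and heat factor that acts above HSFA3, had 0.354 and 0.367 FPKM in K36M and 0.855 and 0.101 FPKM in WT, too little for the filter, and was not tested.

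Of the 14 HSF genes outside the set, 8 were tested, 4 with a log2 difference below 0 and 4 above, and none was called. HSFC1 was the one without overlap, where 19.3% of all features were lower and 12.1% higher without overlap. It stood at 8.83 and 8.86 FPKM in K36M and 5.44 and 7.95 FPKM in WT. HSFA4A and HSFA8, named after their values were seen, were high in WT replicate 1 alone, HSFA4A with 2.62 and 3.09 FPKM in K36M and 20.9 and 2.62 FPKM in WT. HSFA8 had 0.707 and 1.505 FPKM in K36M and 14.1 and 0.483 FPKM in WT. HSFA6A and HSFA7B were listed at 0 in every library.

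Small heat shock proteins were low in these leaves. Of 13 genes, 9 were tested, 7 with a log2 difference below 0 and 2 above, and the median was -0.74. The class summed to 18.9 and 32.1 FPKM in K36M and to 50.6 and 30.7 FPKM in WT. Without WT replicate 1 the median was 0.04, in the opposite direction, and 4 of the 9 were below 0, against 57.9% of all features.

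AT1G59860 and AT1G07400 had the greatest differences among the small heat shock protein genes, and both were lower in each K36M library than in each WT library. AT1G59860 had 0.852 and 0.664 FPKM in K36M, against 3.39 and 2.28 FPKM in WT. Its log2 difference was -1.11 ± 0.44 (SE; limma unadjusted p = 0.0438, adjusted p = 1), at -1.24 between replicate 1 and -0.98 between replicate 2 libraries. AT1G07400 had 3.83 and 3.73 FPKM in K36M, against 6.07 and 12.1 FPKM in WT, a log2 difference of -1.01 ± 0.45 (SE; limma unadjusted p = 0.0642, adjusted p = 1). Here WT replicate 2 was the highest library, and the difference was -0.55 between replicate 1 and -1.47 between replicate 2 libraries.

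Further members were lower in both K36M libraries mainly against WT replicate 1. HSP17.6A, a cytosolic class II protein, had 0.469 and 0.535 FPKM in K36M and 2.44 and 0.825 FPKM in WT (log2 difference -0.74 ± 0.52 (SE), limma adjusted p = 1). AT5G51440 had 2.22 and 3.08 FPKM in K36M and 10.7 and 3.33 FPKM in WT (-0.97 ± 0.56 (SE), limma adjusted p = 1), of which only -0.09 remained between replicate 2 libraries. In both genes WT replicate 2 was close to the K36M values.

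In the remaining tested small heat shock proteins the groups overlapped. HSP17.6II, the neighbour of HSP17.6A in the genome, had 0.66 and 1.84 FPKM in K36M and 3.05 and 0.707 FPKM in WT (log2 difference -0.28 ± 0.60 (SE), limma adjusted p = 1). HSP17.4 had 0.825 and 1.1 FPKM in K36M and 2.96 and 0.903 FPKM in WT, and AT2G29500 had 1.26 and 4.92 FPKM in K36M and 14.4 and 1.84 FPKM in WT. WT replicate 1 was the highest library for all 3. The only members of the class with a positive difference were HSP18.2, at 5.41 and 9.2 FPKM in K36M and 3.09 and 6.38 FPKM in WT, and AT5G37670, at 2.77 and 6.53 FPKM in K36M and 3.42 and 1.86 FPKM in WT. Their log2 differences were 0.56 ± 0.48 and 0.58 ± 0.51 (SE; limma adjusted p = 1 each).

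The 4 remaining genes of the class had values under 1 FPKM in every library. The chloroplast protein HSP21 was listed at 0 in both K36M libraries and in WT replicate 2, and at 0.0717 FPKM in WT replicate 1. HSP22.0 of the ER had 0.184 and 0 FPKM in K36M and 0.0732 and 0 FPKM in WT, and HSP23.6 of the mitochondrion had 0.202 and 0 FPKM in K36M and 0.0766 and 0 FPKM in WT. AT1G53540 stood at 0.217 and 0.515 FPKM in K36M and 0.867 and 0.529 FPKM in WT. None of these passed the filter, so they were not tested.

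Of the 3 tested inducible cytosolic chaperones, 2 were lower in both K36M libraries than in either WT library, where 19.3% of all features were. HSP70-4 (AT3G12580, symbol HSP70 in RefSeq), a heat-inducible HSP70, had 7.16 and 4.29 FPKM in K36M, against 21.3 and 17.63 FPKM in WT. Both K36M libraries were well below both WT libraries, and neither group spread as widely as the groups stood apart. The K36M mean was 5.73 ± 2.03 FPKM and the WT mean 19.5 ± 2.63 FPKM (SD, n = 2 each), a ratio of 0.294. On the log2 scale the difference was -1.63 ± 0.42 (SE; limma unadjusted p = 0.00761, adjusted p = 1), with -1.45 between replicate 1 and -1.82 between replicate 2 libraries.

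HSP101, the disaggregase needed for acquired thermotolerance, followed the same order of libraries. It had 2.33 and 2.05 FPKM in K36M, against 6.64 and 5.16 FPKM in WT. The log2 difference was -1.11 ± 0.39 (SE; limma unadjusted p = 0.029, adjusted p = 1), with -1.20 between replicate 1 and -1.02 between replicate 2 libraries. HSP70B, another inducible HSP70, was under the filter, at 0.449 and 0.645 FPKM in K36M and 1.31 and 0.994 FPKM in WT, again with both K36M values the lower.

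HSP90.1, the heat-inducible cytosolic HSP90, did not share this order. It had 3.45 and 4.33 FPKM in K36M and 36.9 and 3.72 FPKM in WT. WT replicate 1 was the one high library, and WT replicate 2 lay between the K36M values. The log2 difference of -1.46 ± 0.94 (SE; limma adjusted p = 1) was made up of -3.09 between replicate 1 and 0.17 between replicate 2 libraries. The class thus held both patterns, a lower level in K36M than in each WT library (HSP70-4, HSP101, HSP70B) and a high level in 1 WT library (HSP90.1).

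**Figure D2:**
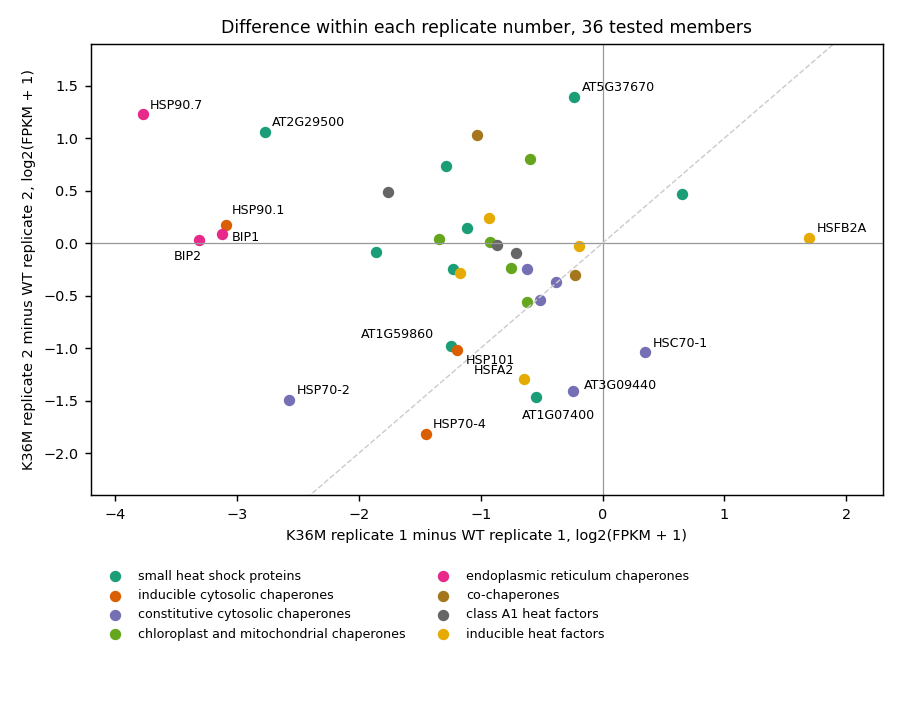
Log2(FPKM + 1) difference, K36M minus WT, between the replicate 1 libraries (horizontal axis) and between the replicate 2 libraries (vertical axis) for the 36 tested genes, coloured by class, with equal differences on the dashed line. HSP70-4, HSP101 and AT1G59860 lie near the dashed line below 0 in both pairs, while HSP90.7, BIP1, BIP2, HSP90.1 and AT2G29500 lie far to the left and at or above 0 on the vertical axis.

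Among the constitutive cytosolic forms all 6 had a log2 difference below 0, with a median of -0.48, and 5 were lower in each K36M library than in each WT library (19.3% of all features). Without WT replicate 1 all 6 were again below 0, with a median of -0.72, where 57.9% of all features were below 0. HSC70-1, the main cytosolic HSP70, was the most abundant member of the set, at 1144 and 1111 FPKM in K36M and 898 and 2282 FPKM in WT. It was the exception in which the groups overlapped, since WT replicate 1 was here the lowest library (log2 difference -0.34 ± 0.77 (SE), limma adjusted p = 1). The HSP70 gene AT3G09440, the next most abundant, had 223 and 135 FPKM in K36M and 264 and 358 FPKM in WT (-0.82 ± 0.57 (SE), limma adjusted p = 1).

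HSP70-2, which lies next to HSC70-1 in the genome, had the greatest difference of all 36 members. It had 16 and 13.3 FPKM in K36M, against 99.9 and 39.2 FPKM in WT. The K36M libraries were close to each other and both WT libraries lay above them, although with a log2 gap of 1.33 between them. The K36M mean was 14.6 ± 1.87 FPKM and the WT mean 69.6 ± 42.9 FPKM (SD, n = 2 each). Its log2 difference was -2.03 ± 0.56 (SE; limma unadjusted p = 0.0105, adjusted p = 1), with -2.57 between replicate 1 and -1.49 between replicate 2 libraries. HSP70-2 was put among the constitutive forms by family. Without it the median of the class was -0.43. Reads can be shared between close copies, which was not examined, so the split between HSP70-2 and its neighbour is uncertain.

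The cytosolic HSP90 genes HSP90.2, HSP90.3 and HSP90.4 (HSP81-2, HSP81-3 and Hsp81.4 in RefSeq) lie within a few genes of each other. HSP90.2, known for holding immune receptors in a competent state, had 116 and 103 FPKM in K36M, against 152 and 133 FPKM in WT. HSP90.3 had 98.1 and 83.4 FPKM in K36M, against 140 and 122 FPKM in WT, and HSP90.4 had 6.56 and 6.86 FPKM in K36M, against 10.7 and 8.32 FPKM in WT. In all 3 genes the groups did not overlap, yet the differences were small, at -0.38 ± 0.48, -0.53 ± 0.47 and -0.43 ± 0.38 (SE; limma adjusted p = 1 each). For HSP90.2 and HSP90.3 the pairs gave nearly the same value, -0.38 and -0.37 for HSP90.2 and -0.51 and -0.54 for HSP90.3 (replicate 1, replicate 2). As the genes are close copies, these 3 series of values may not be independent.

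Chloroplast and mitochondrial chaperones had a median log2 difference of -0.49 over 5 tested genes. For the HSP70 proteins of the chloroplast, cpHsc70-2 had 137 and 95 FPKM in K36M, against 211 and 141 FPKM in WT (-0.59 ± 0.53 (SE), limma adjusted p = 1), and cpHsc70-1 had 86.8 and 79.8 FPKM in K36M, against 147 and 94.3 FPKM in WT. These 2 of the 5 genes were without overlap, where 19.3% of all features were lower in this way. All 5 genes of the class were highest in WT replicate 1, against 34% of all features. HSP90.5 (CR88), the chloroplast HSP90, had 45.2 and 44.9 FPKM in K36M and 116 and 43.7 FPKM in WT. HSP90.6 (Hsp89.1), the mitochondrial form, had 9.78 and 9.34 FPKM in K36M and 19.5 and 9.27 FPKM in WT. For these 2 HSP90 genes WT replicate 2 was nearly equal to both K36M libraries, and WT replicate 1 was the highest library. CLPB3, the chloroplast relative of HSP101, had 30.3 and 33.9 FPKM in K36M and 46.5 and 19.1 FPKM in WT, with the K36M values between the WT values. Without WT replicate 1 the median of the class was 0.04.

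ER chaperones gave the widest gap between the WT libraries. BIP2, an HSP70 of the ER lumen, had 20.4 and 27.9 FPKM in K36M and 212 and 27.3 FPKM in WT. BIP1 had 26.7 and 40 FPKM in K36M and 240.1 and 37.5 FPKM in WT, and HSP90.7 (SHD), the ER form of HSP90, had 35.9 and 51.3 FPKM in K36M and 504 and 21.4 FPKM in WT. Each was several times higher in WT replicate 1 than in any other library, and for HSP90.7 the lowest library was the other WT replicate. The log2 gap between the WT libraries was 2.91 for BIP2, 2.65 for BIP1 and 4.50 for HSP90.7, against gaps of -0.44, -0.57 and -0.50 between the K36M libraries (replicate 1 minus replicate 2). The differences between the groups were -1.64 ± 0.94, -1.52 ± 0.89 and -1.27 ± 1.37 (SE; limma adjusted p = 1 each). Between replicate 2 libraries they were 0.03, 0.09 and 1.23. BIP1 and BIP2 are close copies whose values may not be independent, and BIP1 made up 53.1% to 58.9% of their sum in each library.

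Genes of the unfolded protein response shared with the ER chaperones a highest value in WT replicate 1. All 10 tested genes of that list had a log2 difference below 0 (median -1.46, against -0.05 over all features), 7 were lower in both K36M libraries than in either WT library (19.3% of all features), and none was called (limma, 0 of 10 also at an unadjusted p below 0.05). All 10 were highest in WT replicate 1. BIP3, a BiP gene switched on by ER stress, had 0.165 and 0.364 FPKM in K36M and 41.8 and 0.437 FPKM in WT. CRT3, a calreticulin that matures an immune receptor, had 16.3 and 26.3 FPKM in K36M and 322 and 32.4 FPKM in WT. CNX1, a calnexin, had 37.5 and 54.3 FPKM in K36M and 308 and 75.3 FPKM in WT, and CRT1B, another calreticulin, had 39.1 and 63.5 FPKM in K36M and 179 and 91.1 FPKM in WT. In these 4 genes WT replicate 2 was the second highest library, close to the K36M values for BIP3 and CRT3. Without WT replicate 1 all 10 stayed below 0, against 57.9% of all features, and the median was -0.49, against -0.12 over all features.

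Markers of the salicylic acid immune state were also highest in WT replicate 1. PR1, PR2 and PR5, secreted defence proteins, summed to 13.2 and 23 FPKM in K36M and to 1278 and 327 FPKM in WT. All 3 genes had their next highest value in WT replicate 2, so the groups did not overlap (19.3% of all features were lower in this way). Their log2 differences were -6.23 ± 0.83, -5.37 ± 0.76 and -4.21 ± 0.68 (SE; limma unadjusted p = 0.000261, 0.000382 and 0.000788, not called after adjustment). Without WT replicate 1 they were -5.28, -4.33 and -3.29. The ER chaperones BIP1, BIP2 and HSP90.7 summed to 83 and 119 FPKM in K36M and to 956 and 86.2 FPKM in WT. The part of the immune state in the heat gene values was not tested.

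**Figure D3:**
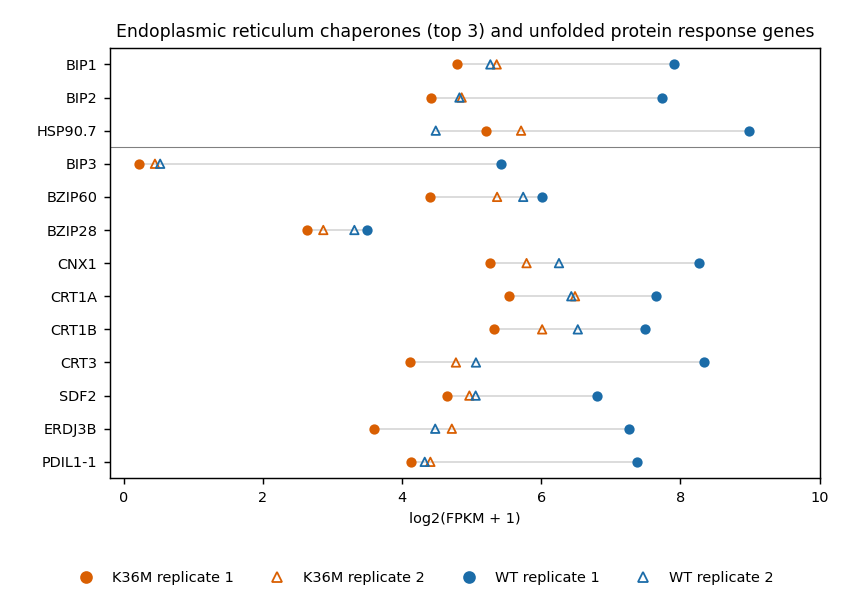
FPKM on a log2(FPKM + 1) axis for the 3 ER chaperones of the set (above the line) and the 10 unfolded protein response genes (below it), with circles for replicate 1 and open triangles for replicate 2 of K36M (orange) and WT (blue). The blue circle of WT replicate 1 lies rightmost in every row, and the other 3 libraries lie together for BIP3 (0.165 and 0.364 FPKM in K36M and 0.437 FPKM in WT replicate 2).

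The co-chaperones of the set overlapped between the groups. ROF1, a peptidyl-prolyl isomerase that binds HSP90, had 16.8 and 29.3 FPKM in K36M and 35.5 and 13.8 FPKM in WT. FES1A, a factor that protects HSP70, had 17.1 and 10.1 FPKM in K36M and 20.2 and 12.6 FPKM in WT. In ROF1 the K36M values lay between the WT values, and the difference was -1.03 between replicate 1 and 1.03 between replicate 2 libraries.

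Of 18 further co-chaperone and heat output genes, 14 were tested, 11 with a log2 difference below 0 and 3 above (median -0.39), and none was called (limma, 0.0395% of all features; 0 of 14 also at an unadjusted p below 0.05). ROF2, the heat-induced relative of ROF1, had 1.5 and 2.08 FPKM in K36M and 19.6 and 2.26 FPKM in WT. SGT1A, which works with HSP90 in immune receptor assembly, had 38.6 and 38.9 FPKM in K36M, against 100.2 and 64.3 FPKM in WT (-1.03 ± 0.46 (SE), limma adjusted p = 1). J2, a DnaJ partner of HSP70, had 50.5 and 56.9 FPKM in K36M, against 99.3 and 82.9 FPKM in WT. HSBP, which binds and restrains HSFs, ran the other way, with 143 and 195 FPKM in K36M, against 106 and 117 FPKM in WT. SGT1A, J2 and HSBP kept the K36M values on one side of both WT values, and ROF2 did so by a small margin against WT replicate 2. Of the 14 tested genes, 3 were lower and 1 higher without overlap, where 19.3% of all features were lower and 12.1% higher.

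Among 13 further chaperone genes, 11 were tested, 9 with a log2 difference below 0 and 2 above (median -0.41). None was called (0.0395% of all features), and 1 was higher at an unadjusted p below 0.05 (1.74% of all features). That gene was AT4G21870, at 25.5 and 48.1 FPKM in K36M, against 11.8 and 13 FPKM in WT (1.43 ± 0.47 (SE), limma unadjusted p = 0.0212, adjusted p = 1). CPN60A, the alpha subunit of the chloroplast chaperonin that folds rubisco, had 116 and 126 FPKM in K36M, against 236 and 229.9 FPKM in WT. Its WT values were nearly equal, and its log2 difference was -0.94 ± 0.49 (SE; limma adjusted p = 1). The mitochondrial mtHSC70-2 had 11.8 and 9.35 FPKM in K36M and 31.4 and 11.9 FPKM in WT, and HSP70-15, a nucleotide exchange factor of HSP70, had 52.3 and 45.9 FPKM in K36M and 58 and 97.2 FPKM in WT. HSP70-18 was listed at 0 in every library.

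Ratios within a library do not depend on how libraries are scaled to each other. HSP70-4 and HSP70B, the inducible cytosolic HSP70 forms, made up 0.547% and 0.39% of the summed FPKM of the 5 cytosolic HSP70 genes in K36M, against 1.76% and 0.69% in WT. Both K36M shares lay below both WT shares. HSC70-1 made up 82.3% and 87.9% in K36M and 69.9% and 84.6% in WT, and HSP70-2 1.15% and 1.05% in K36M and 7.78% and 1.45% in WT. HSP90.1 made up 1.54% and 2.19% of the 4 cytosolic HSP90 genes in K36M and 10.9% and 1.4% in WT, so only WT replicate 1 stood out. The ER chaperones came to 5.17% and 8.22% of the sum of the constitutive cytosolic chaperones in K36M and to 61.1% and 2.93% in WT. With 2 libraries a group, an exact test of such a share cannot pass 0.05, and none was made.

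**Figure D4:**
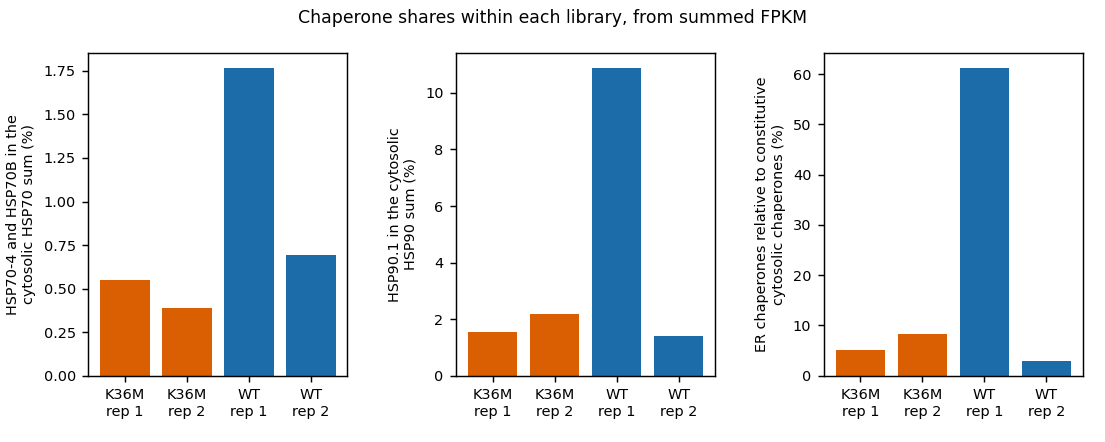
Shares computed from summed FPKM in each library, with K36M bars in orange and WT bars in blue: HSP70-4 and HSP70B among 5 cytosolic HSP70 genes (left), HSP90.1 among 4 cytosolic HSP90 genes (middle), and ER chaperones relative to constitutive cytosolic chaperones (right), all in percent with axes from 0. The left panel has both K36M bars (0.547% and 0.39%) below both WT bars, and in the other panels WT replicate 1 (10.9% and 61.1%) is far above the other 3 libraries.

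The gap between the WT libraries was wider than the difference between the groups for 25 of the 36 members, a share close to that of all tested features (12699 of 17738). The median size of the log2 gap was 0.35 between the K36M libraries and 1.03 between the WT libraries, against 0.34 and 0.70 over all tested features. Comparing K36M with WT replicate 1 alone (limma without WT replicate 2, a lone library assumed to vary like the K36M group), 4 members were called lower (11.1%), against 2.88% of all features. They were HSP90.7 (log2 difference -3.52, adjusted p = 0.0371), BIP2 (-3.10, adjusted p = 0.0401), HSP90.1 (-2.96, adjusted p = 0.033) and HSP70-2 (-2.69, adjusted p = 0.0425). Against WT replicate 2 alone none was called, where 0.0677% of all features were called lower and 0.00564% higher. There the log2 differences of HSP90.7 and HSP90.1 were above 0, at 0.97 and 0.04, and those of HSP70-2 and BIP2 below 0, at -1.37 and -0.19.

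Other tissue markers also differed between libraries. WT replicate 1 had the lowest sum of meristem and of epidermis genes. The meristem genes STM, KNAT1 and CUC2 summed to 15.2 and 11.9 FPKM in K36M and to 0.247 and 13.5 FPKM in WT. The 5 epidermis genes summed to 543 and 456 FPKM in K36M and to 199 and 688 FPKM in WT. Of these, PDF1 had 313 and 213 FPKM in K36M and 4.81 and 404 FPKM in WT. ATML1, FDH and CER5 were also lowest in WT replicate 1, by less than PDF1. PDF2 was highest in that library, at 25.5 and 22.1 FPKM in K36M and 25.8 and 22.2 FPKM in WT. Of the stamen and pollen genes, AP3 and PI separated the genotypes instead. The 4 genes of this list summed to 5.63 and 9.51 FPKM in K36M and to 0.233 and 0.527 FPKM in WT. AP3 had 2.69 and 3.02 FPKM in K36M and 0 FPKM in each WT library. PI had 2.91 and 6.28 FPKM in K36M and 0 and 0.527 FPKM in WT. Both tested genes, AP3 and PI, were higher in K36M at an unadjusted p below 0.05 (limma, not called after adjustment). Of all tested features, 1.74% were higher at that threshold, and 12.1% had both K36M values above both WT values, as AP3 and PI did. AMS and TDF1 were too low for the filter, and their groups overlapped. AMS had 0.0258 and 0.0676 FPKM in K36M and 0.153 and 0 FPKM in WT. TDF1 had 0 and 0.139 FPKM in K36M and 0.08 and 0 FPKM in WT. In bulk RNA a different share of cell types and a different level per cell cannot be told apart. The part of tissue composition in the heat gene values was not tested.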

How the data were processed

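A stranded mRNA kit was used on leaf RNA, per the labels' protocols, and the authors deposited FPKM for 4 libraries in 1 table without a header. TAIR10, Bowtie2 and bedtools are named, without roles, per the submitters' processing notes. Which program made the FPKM, whether it used strand and how deep the libraries are was not given in the sources used here. Rows were tied to libraries by the condition and replicate that the labels quote. All 42 members were found in RefSeq's annotation (TAIR10.1), where 7 have no symbol of their own. No coordinates are given, as the builds differ. The replicate 2 libraries shared a trait of their values (86.6% of 2664 features under 1 FPKM had a ratio of whole numbers up to 12, after division by the most common ratio and within 0.0005 in natural log; other pairs gave 2.1% to 2.9%). For this reason the difference between replicate 2 libraries is given. The replicate 1 libraries did not share the trait (2.5%), and their difference is given beside it by replicate number only.

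The 17738 features averaging 1 FPKM or more were compared as log2(FPKM + 1) with limma 3.58.1 in R 4.3.3 (two-sided, mean-variance trend), with Benjamini-Hochberg adjustment over all of them and a threshold of 0.05. No count model was run on FPKM. The fit was first tested on simulated data. Python 3.11.15 with pandas 2.3.3 and matplotlib 3.10.9 made the tables and figures. The members, the class to which each was put and the further lists were chosen with earlier results of these data known, so lists are described by counts and medians without a test. Full statistics were given for tested members whose groups did not overlap with a log2 difference of at least 0.5 in size, and for members picked whatever their values. From the further lists, up to 4 genes each without overlap and with the greatest difference were named. Alternatives were another pseudocount, filter, scaling or variance model, removal of a gene length trend, the replicate number as a block, and each library left out in turn.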

Additional observations from a re-analysis of the deposited data

How the results depend on the processing

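No alternative other than leaving out WT replicate 2 called any heat gene (limma). The number of genes called over the whole table was 0 with no filter on low values (1175 of 25789 at an unadjusted p below 0.05) and 0 with the replicate number as a block (794 of 17738 at an unadjusted p below 0.05), and 0 to 702 when 1 library was left out, against 7 with all 4. Of heat genes, 0 to 4 were called when 1 library was left out. The labels do not say that replicate numbers mark a shared plant, batch or day, so the block is a shared number only. The correlation across 17738 features of the replicate 1 minus 2 gap in K36M with that in WT was 0.128. The block changed no call among the heat genes.

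With each library left out in turn, the median log2 difference ranged from -1.005 to -0.18 over all tested members, from -1.02 to 0.04 for small heat shock proteins, from -1.77 to -0.95 for inducible cytosolic chaperones, from -0.72 to -0.43 for constitutive cytosolic chaperones, from -0.88 to 0.0404 for chloroplast and mitochondrial chaperones, from -3.10 to -0.19 for ER chaperones, and from -0.99 to -0.28 for inducible heat factors. The same range was -1.21 to 0.31 for class A1 heat factors and -0.62 to 0.35 for co-chaperones. With the gene length trend removed, the constitutive cytosolic median was -0.37.

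Leaving out 1 library turned the direction of 16 members. Their log2 differences ranged from -2.08 to 0.36 for AT2G29500, -1.02 to 0.04 for HSP17.4, -0.90 to 0.35 for HSP17.6II, -2.96 to 0.0445 for HSP90.1, -1.02 to 0.33 for HSC70-1, -0.52 to 0.72 for CLPB3, -1.35 to 0.0445 for HSP90.5, and -0.96 to 0.0404 for HSP90.6. The ranges were -3.52 to 0.97 for HSP90.7, -0.65 to 0.65 for ROF1, -0.62 to 0.0913 for FES1A, -1.05 to 0.17 for HSFA1A, -1.58 to 0.31 for HSFA1B, -1.21 to 0.41 for HSFA1D, -0.37 to 0.15 for HSFA7A, and -0.99 to 0.30 for MBF1C. ROF1, at -7.6e-05 with all libraries, was at 0.004 with a pseudocount of 0.1, 0.0836 with upper quartile scaling and 0.18 with the gene length trend removed. The other 35 tested members kept their direction under each setting that used all 4 libraries. The cause of these shifts was not tested. A planned search of promoters for heat shock elements was not run.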
